A study of Mus musculus with 31 samples.

Results

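The libraries described here are the 20 of 31 mouse brain RNA libraries that lay at the ends of the range of Adora2a, the gene of an adenosine receptor. Adora2a was expressed as CPM, its count per 1000000 counts of the library total, with genes of the mitochondrial genome (symbols starting with mt-) left out of that total. Within the 13 control libraries the 4 highest and 4 lowest were taken, and within the 18 deltamethrin libraries the 6 highest and 6 lowest. This gave 10 high and 10 low libraries, and 11 libraries in neither group. The groups were therefore chosen on measured values, and the differences below set libraries at opposite ends of 1 transcript's range side by side, not treated with untreated mice. The tested quantity is every gene other than Adora2a, with agent (control or deltamethrin) as a covariate.

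Deltamethrin is an insecticide of the pyrethroid class, and the study examined the brains of mice exposed to it during development, with MAP kinase and circadian genes named in its title. Total RNA came from aliquots of homogenised brain, and the agent is the only factor in the labels. Dose, age, sex, strain and the days of dissection and library preparation are not given in the sources used here. The class line of the count table matched the agent label in all 31 libraries. The labels do not say that each library came from a separate animal, so the p-values measure the spread between these libraries.

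Adora2a is a textbook marker of the indirect-pathway medium spiny neurons of the striatum, the inhibitory projection neurons that also carry dopamine D2 receptors and enkephalin. Direct-pathway medium spiny neurons carry dopamine D1 receptors and substance P instead, and both kinds share DARPP-32 and a dense set of cyclic AMP signalling proteins. The Adora2a and D1 receptors raise cyclic AMP and the D2 receptor lowers it. In RNA from whole tissue, fewer cells of a type and less RNA per cell cannot be told apart.

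Adora2a (ENSMUSG00000020178, chr10:75316877-75334784 on the + strand of GRCm38, protein coding) read 75.9 to 125.5 CPM in the high libraries (median 87.9) and 36.8 to 62.1 CPM in the low ones (median 53.0), on the scale used for the choice. On the scale used for all other genes, CPM after trimmed-mean (TMM) scaling, the means were 74.8 ± 11.5 (SD, n = 10) and 43.2 ± 5.94 (SD, n = 10), a fold of 1.73. The raw count behind each value lay between 847 and 2843. These values chose the libraries and are a description, with no test. The limits of the groups were not gaps in the data. Among controls the last library taken as high stood at 86.6 and the next one at 86.0, and the last taken as low at 62.1 and the next at 63.3. Among deltamethrin libraries the corresponding pairs were 75.9 and 74.2, and 57.3 and 57.4.

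**Figure D1:**
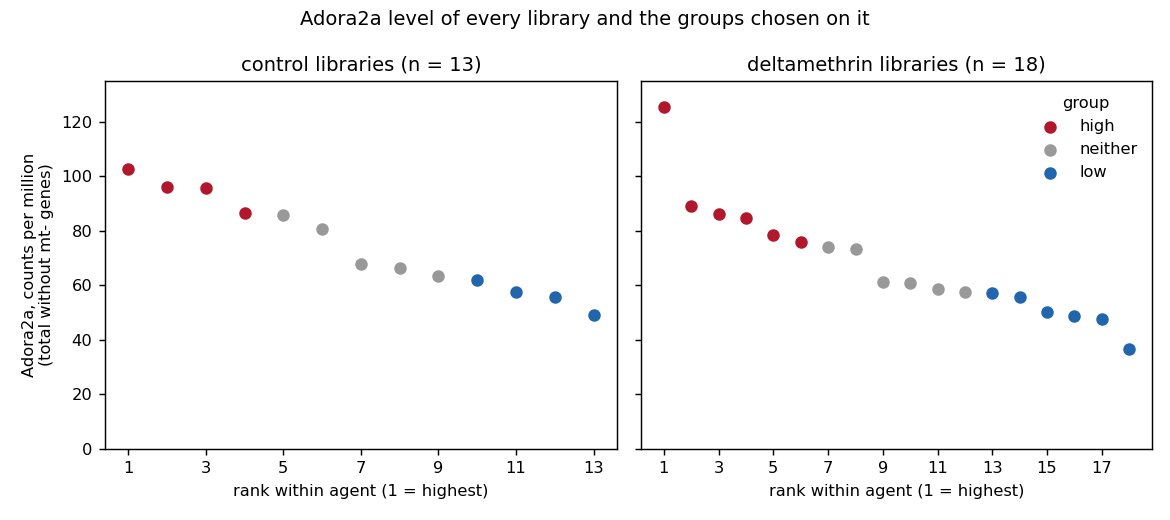
Adora2a level (y axis, CPM of the total without mt- genes) of each library against its rank within agent (x axis, 1 = highest), for 13 control and 18 deltamethrin libraries. Red points are the 10 high, blue the 10 low and grey the 11 libraries in neither group. The highest deltamethrin library stands alone at 125.5, and no border of a group falls at one of the larger steps.

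The high libraries held 25010678 to 34765521 counts and the low ones 27017045 to 38680621, and no pair of libraries within an agent and group agreed within counting noise. Markers of brain tissue were high throughout: Slc17a7, the vesicular glutamate transporter of cortical excitatory neurons, read 700 to 1091 CPM in high and 798 to 1158 CPM in low libraries, and Mbp, a myelin protein, 2328 to 3594 and 2239 to 3014 CPM. The groups also differed in what filled the libraries. Ribosomal RNA of mitochondria, the sum of mt-Rnr1 and mt-Rnr2, made up 17.9 ± 5.83% of all counts in high and 11.5 ± 3.42% in low libraries (SD, n = 10 each; exact permutation test within agent, two-sided, p = 0.00773, 0.0309 after Benjamini-Hochberg adjustment over 4 library measures). Leaving out deltamethrin replicate 1, 10 or 11 or control replicate 4, 8 or 9 took its adjusted p to between 0.0508 and 0.0565 (exact permutation tests). Fewer genes had a count in high libraries (27962 against 28684; exact permutation p = 0.0193, adjusted 0.0335), the TMM factor was lower (0.970 against 1.034; exact permutation p = 0.0251, adjusted 0.0335), and the difference in total counts had an exact permutation p of 0.0502, also after adjustment. These measures moved with the Adora2a groups.

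Deltamethrin replicate 2, a high library, stood apart from the other 9. It had the lowest mitochondrial rRNA share of the high group (8.62%), and it was the highest of the 10 for the hindbrain and spinal genes Slc6a5 (20.9 CPM, next 6.79) and Glra1 (9.97 CPM, next 2.50), glycine transporter and receptor genes. The same library was highest for Slc17a6, a subcortical glutamate transporter (75.5 CPM, next 48.7), and for Flt1, a vessel gene (61.2 CPM, next 33.0). Counts of called genes are given with and without it.

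Many of the genes that rose with Adora2a are medium spiny neuron genes, led by the receptors Gpr6, Drd1 and Drd2. Of 19277 genes tested with edgeR's quasi-likelihood test, 27 (0.140%) passed a Benjamini-Hochberg adjusted p of 0.05, 22 higher in the high libraries (0.114%) and 5 lower (0.0259%). Of the 22, 11 were on 5 lists of medium spiny neuron genes that together had 48 members tested. No listed medium spiny neuron gene was called lower, and 44 of the 48 had a positive fold change. The median log2 fold change of the 48 was 0.33, against 0.0050 over all genes tested, of which 51.0% were positive. The called increases were moderate, from 1.33-fold to 2.71-fold.

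In 8 genes (0.0415% of those tested) every high library lay above every low library, among them Gpr6, Drd1, Rarb, Rxrg, Syndig1l, Serpina9 and the pseudogene Atp5k-ps2. In no gene (0%) did every high library lie below every low one. Without deltamethrin replicate 2 the fit called 667 genes, 253 higher and 414 lower, among them all 27. Named genes called then but not with all 20 libraries were Isl1, Dlx6, Dlx5, Kcnip2, Adora1, Bhlhe40, Fosl2, Egr3, Lhx8, Neurod2, Avp, Oxt, Otp, Slc6a5, Opalin and Fgfr3. The other 19 fits that left out 1 library each called 18 to 47, the highest number without deltamethrin replicate 5, a low library. With no scaling factors 17 genes were called higher and 7 lower. DESeq2 called 162, 80 higher and 82 lower, among them all 27.

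**Figure D2:**
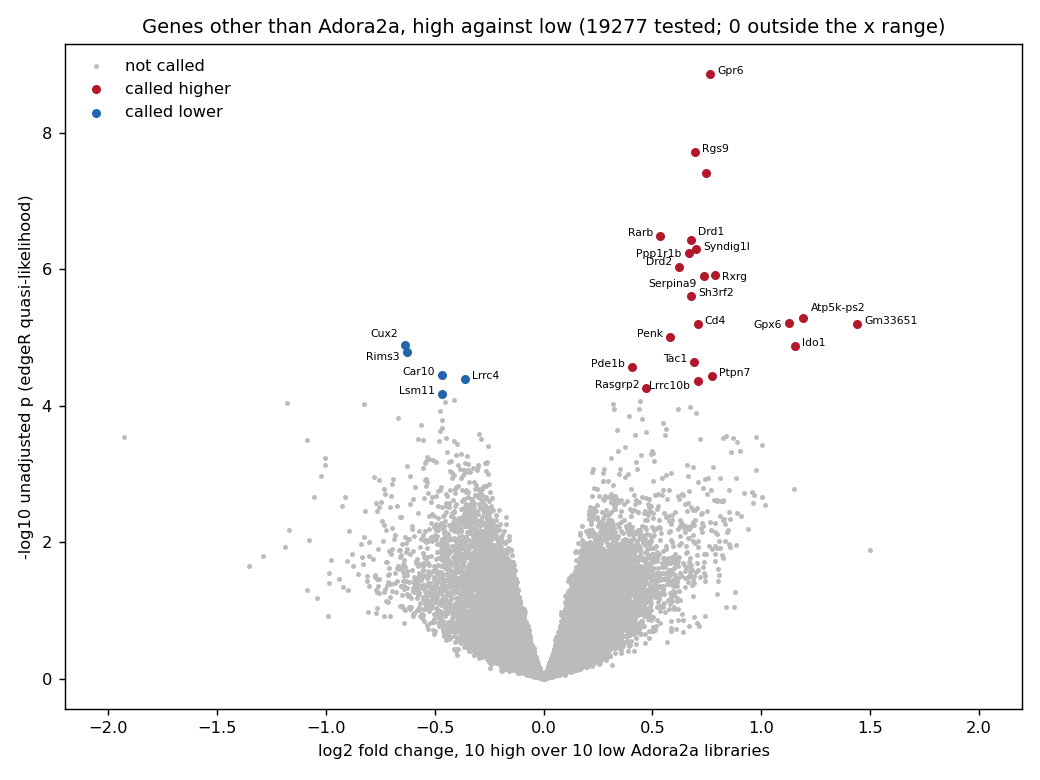
Each point is 1 of 19277 genes other than Adora2a, with the log2 fold change of 10 high over 10 low libraries (x axis) and the −log10 unadjusted p of edgeR's quasi-likelihood test (y axis). Red points are the 22 genes called higher, with Gpr6 at the top, and blue points the 5 called lower.

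The receptor genes Gpr6, Drd2 and Drd1 were among those called higher. Gpr6 (ENSMUSG00000046922, chr10:41069977-41072285, − strand), a constitutively active receptor of indirect-pathway neurons that raises cyclic AMP, read 11.9 to 18.4 CPM in high libraries (median 14.5) and 7.39 to 9.93 in low ones (median 9.01). All 10 high libraries were above all 10 low ones, with a log2 fold change of 0.76 ± 0.08 (SE) and an adjusted p of 2.67e-05, the smallest of the table. Drd2 (ENSMUSG00000032259, chr9:49340627-49408177, + strand), the dopamine D2 receptor, read 16.97 to 30.3 CPM (median 24.97) against 11.7 to 19.8 (median 15.5). The groups overlapped in Drd2, with 9 of the 10 high libraries above every low one, and the log2 fold change was 0.62 ± 0.09 (SE; adjusted p = 0.00223).

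The rise was not limited to genes of Adora2a's own cell type. Drd1 (ENSMUSG00000021478, chr13:54051183-54055705, − strand), the dopamine D1 receptor of direct-pathway neurons, read 36.8 to 65.4 CPM in high libraries (median 45.9) and 21.5 to 33.9 in low ones (median 29.6). Its groups did not overlap, and its log2 fold change of 0.68 ± 0.10 (SE; adjusted p = 0.00144) was close in size to that of Drd2. The difference between D1-type and D2-type genes was not tested.

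The neuropeptide genes split. Penk (ENSMUSG00000045573, chr4:4133531-4138819, − strand), the enkephalin precursor of indirect-pathway neurons, read 116 to 212 CPM in high libraries (median 146) and 79.8 to 128 in low ones (median 104). Tac1 (ENSMUSG00000061762, chr6:7554879-7565834, + strand), the substance P precursor of direct-pathway neurons, read 25.9 to 53.2 CPM (median 39.3) against 17.4 to 30.1 (median 21.8). In both genes the groups overlapped, with 9 (Penk) and 8 (Tac1) high libraries above every low one. The log2 fold changes were 0.58 ± 0.10 for Penk (SE; adjusted p = 0.0121) and 0.69 ± 0.13 for Tac1 (SE; adjusted p = 0.0223).

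Pdyn, the dynorphin precursor that direct-pathway neurons also express, was not called. Its high libraries read 12.1 to 27.5 CPM (median 19.1) and its low ones 13.6 to 20.1 (median 17.2), so the ranges lay over each other, with a log2 fold change of 0.18 ± 0.11 (SE; adjusted p = 0.379). With the mitochondrial rRNA share as a further covariate Penk had 0.68 (adjusted p = 0.00939), while Tac1 had 0.37 and was no longer called (adjusted p = 0.362). Tac1 was called in 12 of the 20 fits that left out 1 library. It was also not called when the groups were formed from Adora2a over the whole library total (0.35, adjusted p = 0.747). Penk was not called with no scaling factors (0.49, adjusted p = 0.111).

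Of 16 listed signalling proteins that act downstream of these receptors, 5 were called higher, among them Rgs9, Ppp1r1b, Pde1b and Rasgrp2. Rgs9 (ENSMUSG00000020599, chr11:109225355-109298129, − strand), which speeds the shut-off of G proteins at striatal receptors, read 51.5 to 83.5 CPM in high libraries (median 71.7) and 37.0 to 51.8 in low ones (median 42.1). A single high library fell within the low range, and the log2 fold change was 0.70 ± 0.08 (SE; adjusted p = 1.84e-04). Ppp1r1b (ENSMUSG00000061718, chr11:98348404-98357796, + strand), which encodes DARPP-32, the dopamine-regulated inhibitor of protein phosphatase 1, read 256 to 407 CPM (median 303) against 154 to 266 (median 201).

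For Ppp1r1b, 8 of the 10 high libraries were above every low one, and the log2 fold change was 0.67 ± 0.10 (SE; adjusted p = 0.00159). It overlaps 1700003D09Rik on the opposite strand, which had 0.57, and the sources used here do not state whether strand was used in counting. Pde1b, a calcium-dependent phosphodiesterase (0.41 ± 0.08, SE; adjusted p = 0.0246), and Rasgrp2, an activator of Rap GTPases (0.47 ± 0.10, SE; adjusted p = 0.0415), were also called. Both were outside the naming rule and are named after their values were seen. Pde1b was called in 12 and Rasgrp2 in 7 of the 20 fits that left out 1 library.

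Other core enzymes of the same pathway did not pass. Pde10a, the phosphodiesterase most typical of medium spiny neurons, read 138 to 296 CPM in high libraries (median 226) and 120 to 212 in low ones (median 170), with a log2 fold change of 0.45 ± 0.13 (SE; adjusted p = 0.183). Adcy5, the main striatal adenylyl cyclase, read 318 to 514 (median 381) against 257 to 467 CPM (median 363), with 0.17 ± 0.11 (SE; adjusted p = 0.409). The 16 listed signalling genes nevertheless had positive fold changes throughout, with 5 called higher, none lower, and a median of 0.42. Their summed level was 2552 to 3347 CPM in high libraries (median 2838) and 1850 to 2519 CPM in low ones (median 2251), with no overlap between the groups.

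Both partners of a retinoid receptor pair were called higher. Rarb (ENSMUSG00000017491, chr14:16430839-16819156, − strand), the retinoic acid receptor beta, read 18.1 to 27.1 CPM in high libraries (median 20.9) and 13.002 to 16.94 in low ones (median 14.96). Rxrg (ENSMUSG00000015843, chr1:167598384-167639623, + strand), the retinoid X receptor gamma with which retinoic acid receptors pair, read 19.5 to 38.2 CPM (median 25.8) against 12.4 to 19.4 (median 15.6). Neither gene's groups overlapped, though in Rxrg the closest libraries stood at 19.5 and 19.4.

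The log2 fold changes were 0.54 ± 0.07 for Rarb (SE; adjusted p = 0.00144) and 0.79 ± 0.12 for Rxrg (SE; adjusted p = 0.00242). Rarb overlaps Top2b on the opposite strand, which had 0.023. Rxrg was not called with the mitochondrial rRNA share as a covariate (0.55, adjusted p = 0.0889), and neither was called when the groups were formed from Adora2a over the whole library total, mitochondrial genes included (0.39, adjusted p = 0.119 for Rarb, and 0.50, adjusted p = 0.433 for Rxrg).

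Promoter letters of Gpr6 and Rarb are shown because Gpr6 had the smallest p of the comparison and both were separated without overlap. Each window also holds a motif that was searched for, and whether these motifs act on the genes was not tested. The sequences are RefSeq windows of GRCm38.p6 covering 250 bases before the start that RefSeq gives the gene, printed 5′ to 3′ on the gene's strand. For Gpr6, chr10:41072291-41072540 (− strand), the capitals mark the cyclic AMP response element TGACGTCA, whose first base lies 78 bases before the start (position -78):
Gpr6: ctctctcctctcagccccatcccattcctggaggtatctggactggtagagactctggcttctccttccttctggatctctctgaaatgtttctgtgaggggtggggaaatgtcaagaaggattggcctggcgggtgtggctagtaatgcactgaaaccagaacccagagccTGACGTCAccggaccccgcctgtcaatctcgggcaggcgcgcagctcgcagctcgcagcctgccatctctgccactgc
For Rarb, whose RefSeq start lies inside the GENCODE span of the gene and whose window overlaps the first exon of another annotated transcript, only the 30 bases around the match are given, chr14:16575506-16575535 (− strand). The capitals mark a direct repeat of GTTCA with 6 bases between the copies, a spacing chosen after the sequence was seen, at positions -52 and -41:
Rarb: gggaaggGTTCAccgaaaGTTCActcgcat

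Searched on both strands, TGACGTCA was in 1.769% of the windows of 27025 genes and in 1 of the 13 genes called higher that had a window, Gpr6. The shorter form TGACG, which lies within it, was in 19.785% of all and in 4 of the 13 (Gpr6, Gpx6, Ptpn7 and Tac1). The GTTCA repeat was in 0.078% of all and in 1 of the 13, Rarb. Its spacing was chosen on the Rarb window, so that match was fixed in advance and the shares cannot be compared. Among the called genes with no matched window were Syndig1l, Ppp1r1b, Serpina9, Penk, Sh3rf2, Atp5k-ps2, Cd4 and Ido1. A match is a description of letters and not evidence of a bound factor.

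Of the 9 listed transcription factors of medium spiny neurons, Rarb was the one called, and all 9 had positive fold changes with a median of 0.27. Dlx6, a homeobox factor of the forebrain's inhibitory lineage, read 4.57 to 7.96 CPM in high and 3.81 to 6.07 in low libraries (0.45 ± 0.10, SE; adjusted p = 0.0711), and Dlx5 had 0.38 ± 0.11 (SE; adjusted p = 0.183). Isl1, a factor of direct-pathway neurons, had 0.50 ± 0.12 (SE; adjusted p = 0.122). None of 5 listed ion channel genes was called. The closest was Kcnip2, a subunit of A-type potassium channels, at 92.6 to 133 CPM in high and 83.2 to 106 in low libraries (0.32 ± 0.07, SE; adjusted p = 0.0590), followed by Kcnab1 (0.28, adjusted p = 0.143) and the sodium channel subunit Scn4b (0.37, adjusted p = 0.184).

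By pathway, 3 of 9 tested indirect-pathway genes were called higher (median log2 fold change 0.40) and 2 of 9 direct-pathway genes (median 0.18), against 0.114% of all genes. These were Gpr6, Drd2 and Penk in the first and Drd1 and Tac1 in the second. The summed direct-pathway level was 156 to 214 CPM in high libraries and 129 to 154 in low ones, without overlap, while the summed indirect-pathway level overlapped, at 221 to 366 and 201 to 296 CPM. Among indirect-pathway genes Grik3, a kainate receptor subunit, had a negative fold change (−0.28, adjusted p = 0.409), and among direct-pathway genes Ebf1, a developmental transcription factor, was 1 of 3 that did (−0.34, adjusted p = 0.281). The lists are textbook sets and were chosen with earlier results of these data known. Gpr52, also listed, is not analysed here.

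The remaining called genes carried large folds at low counts or lay outside the lists. Syndig1l (ENSMUSG00000071234, chr12:84677277-84698831, − strand), a membrane protein gene enriched in the caudate putamen, read 60.8 to 102 CPM in high libraries (median 73.7) and 34.4 to 59.8 in low ones (median 47.5), with 0.70 ± 0.10 on the log2 scale (SE; adjusted p = 0.00159). Serpina9 (ENSMUSG00000058260, chr12:103994743-104013755, − strand), of the serine protease inhibitor family, read 4.98 to 9.24 CPM (median 6.36) against 3.23 to 4.66 (median 4.02), with 0.74 ± 0.11 (SE; adjusted p = 0.00242). Neither gene's groups overlapped. Syndig1l was not called with groups from the whole library total.

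The other called genes were outside the naming rule and are given after their values were seen. Sh3rf2, a SH3 domain protein, had a log2 fold change of 0.68 (adjusted p = 0.00435). Cd4, best known as a co-receptor of T cells, read 5.53 to 12.5 CPM in high and 3.94 to 7.14 in low libraries (0.71, adjusted p = 0.00821). Ido1, which starts the breakdown of tryptophan to kynurenine, read 2.15 to 6.28 against 1.06 to 2.57 CPM (1.16, adjusted p = 0.0143). In Cd4 and Ido1 most high libraries lay above every low one, 9 and 7 of 10.

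Gpx6, a glutathione peroxidase family member (1.13, adjusted p = 0.00821), and the long noncoding RNA Gm33651 (1.44, adjusted p = 0.00821) had at most 41 and 38 counts in a library. Ptpn7, a tyrosine phosphatase best known from blood cells (0.77, adjusted p = 0.0307), had 29 to 74 counts. Lrrc10b, a leucine-rich repeat gene, read 56.4 to 107 CPM in high and 34.1 to 63.9 in low libraries (0.71, adjusted p = 0.0339). Atp5k-ps2 (1.19, adjusted p = 0.00821) is a processed pseudogene with 8 to 27 counts, whose reads may belong to other copies, so its value is uncertain. Ptpn7 and Lrrc10b were each called in 8 of the 20 fits that left out 1 library. With groups from the whole library total Ido1, Gpx6, Gm33651, Ptpn7, Lrrc10b and Atp5k-ps2 were not called. Of 6 microglial markers tested 0 were called, where 0.140% of all genes were, and 4 had positive fold changes. Their summed level was 154 to 202 CPM in high and 139 to 190 in low libraries. The cell source of Cd4 and Ptpn7 was not tested.

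**Figure D3:**
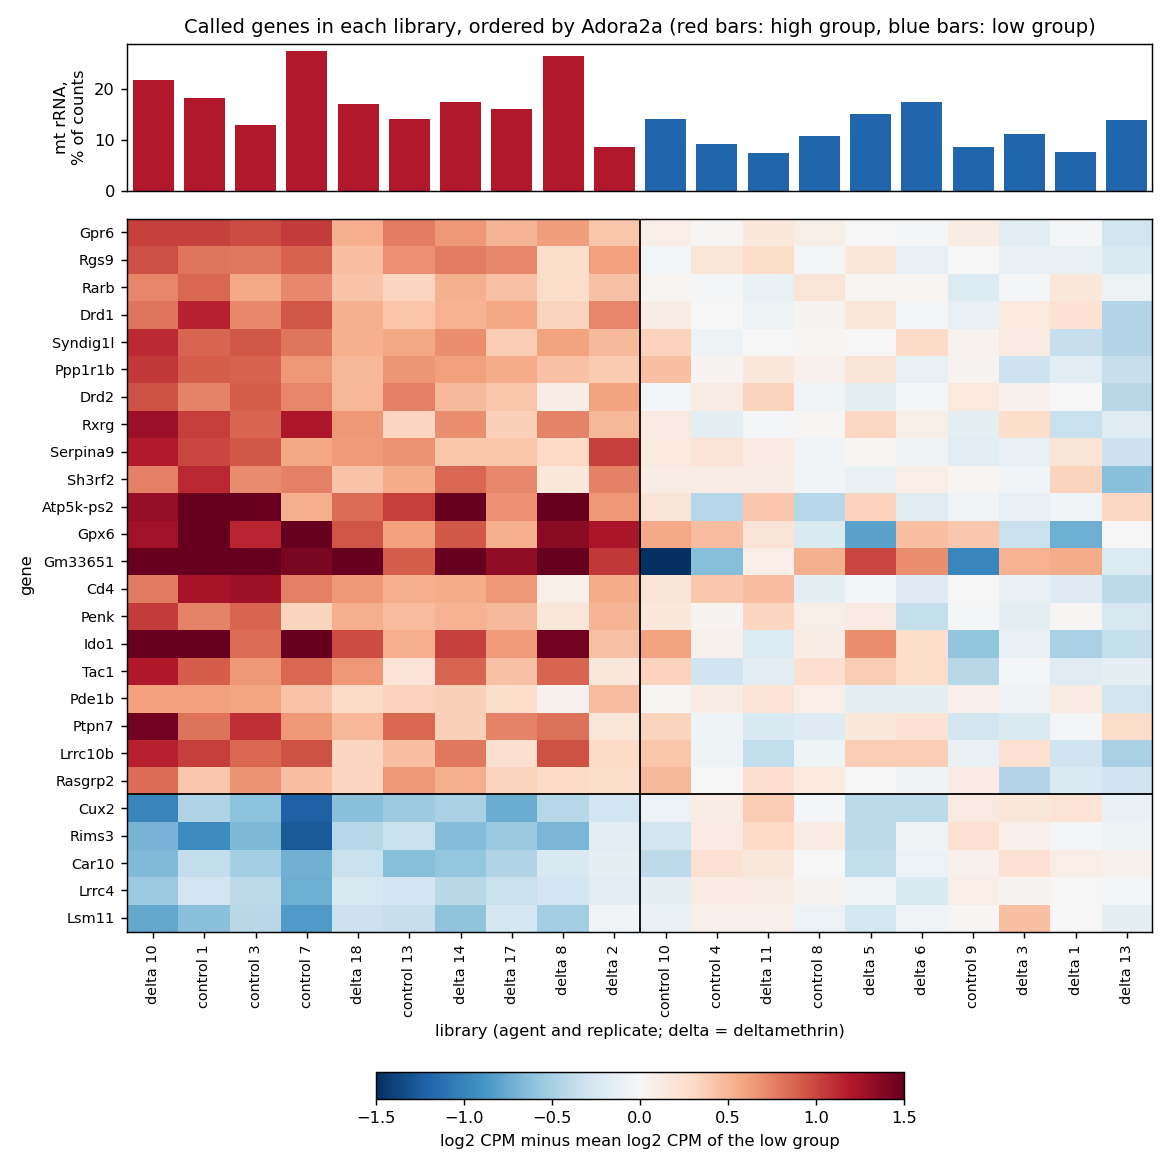
Rows are 26 of the 27 called genes and columns the 20 libraries ordered by Adora2a within each group, with colour giving log2 CPM minus the mean of the low group. The bars above give the mitochondrial rRNA share of counts (y axis, %), red for high and blue for low libraries. The 21 upper rows are red across nearly all high libraries, and the paler last high column is deltamethrin replicate 2, whose bar is the lowest of its group at 8.62%.

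The 5 genes called lower in high-Adora2a libraries were Cux2, Rims3, Car10, Lrrc4 and Lsm11, with log2 fold changes from −0.64 to −0.36. Cux2 (ENSMUSG00000042589, chr5:121856366-122050102, − strand), a transcription factor of upper cortical layers, read 43.4 to 83.3 CPM in high libraries (median 68.2) and 77.1 to 132 in low ones (median 105), with −0.64 ± 0.11 on the log2 scale (SE; adjusted p = 0.0143). Rims3 (ENSMUSG00000032890, chr4:120854816-120896579, + strand), a protein of the presynaptic release site, read 96.8 to 208 CPM (median 147) against 177 to 287 (median 236), with −0.63 ± 0.12 (SE; adjusted p = 0.0168). The ranges overlapped in both.

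Car10, a secreted carbonic anhydrase-related protein that binds neurexins, had a log2 fold change of −0.47 ± 0.09 (SE; adjusted p = 0.0307). Lrrc4, a postsynaptic adhesion protein, had −0.36 ± 0.07 (SE; adjusted p = 0.0322). It lies within Snd1, on the opposite strand, which had −0.089, and overlaps Gm37940, also on the opposite strand, which had −0.41. Lsm11, a subunit of the particle that processes histone transcripts, had −0.47 ± 0.10 (SE; adjusted p = 0.0477). With the mitochondrial rRNA share as a covariate 27 genes were called and all of them were higher, 13 shared with the 27 above. Without the 3 libraries over 20% mitochondrial rRNA, all of them high, 15 were called, again all higher. Leaving out 1 library at a time, Cux2 was called in 20 of 20 fits, Rims3 in 14, Car10 and Lrrc4 in 6 each and Lsm11 in 2. Cux2, Rims3, Car10, Lrrc4 and Lsm11 were all not called with groups from the whole library total.

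Outside the medium spiny neuron lists, 24 lists of other cell types, regions and pathways were described the same way. Of these, 22 had no called gene, and 0.140% of all genes tested were called. The exceptions were Cux2 on the list of cortical excitatory neurons, and Penk on the list of opioid genes. At the share over all genes most lists of this size would hold no call, so its absence does not set a list apart. Of 9 cortical excitatory genes 7 had negative fold changes (median −0.25), among them Neurod2 (−0.26, adjusted p = 0.144). Their summed level was 957 to 1531 CPM in high and 1174 to 1636 in low libraries. All 7 astrocyte genes had negative fold changes (median −0.24), while 8 of 9 oligodendrocyte genes had positive ones (median 0.15). Cux2 was the single one of these called. With groups from the whole library total the cortical median was −0.083, and with the mitochondrial rRNA share as a covariate the astrocyte median was 0.026.

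Cerebellar and hindbrain genes had negative values without passing the test. All 11 cerebellar genes had negative fold changes (median −0.55, smallest adjusted p = 0.221), with a summed level of 102 to 617 CPM in high and 332 to 773 in low libraries. The listed gene Cbln3 read 6.40 CPM in control replicate 1, 11.4 in deltamethrin replicate 14 and 20.8 in control replicate 7. In the other high libraries Cbln3 read 38.5 to 101 CPM, within the low group's range of 37.8 to 159. All 5 hindbrain genes tested, of 9 listed, were negative as well (median −1.04), from a summed level of 0.284 to 33.5 CPM in high and 2.77 to 37.4 in low libraries. The hindbrain median was −1.70 without deltamethrin replicate 2, −0.060 with the mitochondrial rRNA share as a covariate and −0.35 with groups from the whole library total. The cerebellar median was −0.33 and −0.31 under the last pair of settings. For the hypothalamic peptides Avp, vasopressin, and Oxt, oxytocin, the fold changes were −1.18 (adjusted p = 0.0559) and −1.93 (adjusted p = 0.0962). Avp read 0.231 to 1.49 CPM in high and 1.14 to 2.70 in low libraries, and Oxt 0 to 1.47 and 0.361 to 2.67. Avp was called with no scaling factors (adjusted p = 0.0478), and both were called without deltamethrin replicate 2 (adjusted p = 0.0353 for Avp and 0.0436 for Oxt). With groups from the whole library total the values were −0.70 for Avp (adjusted p = 0.741) and −1.16 for Oxt (adjusted p = 0.737). The part of tissue composition in the called genes was not tested.

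Choroid plexus and blood genes leaned the other way. Of 11 choroid plexus genes 10 had positive fold changes (median 0.41), with Ttr, the transthyretin gene, at 249 to 1252 CPM in high and 231 to 659 in low libraries (0.55 ± 0.24, SE; adjusted p = 0.257). The median was 0.84 within control and 0.13 within deltamethrin libraries, and 0.0046 with groups from the whole library total. All 5 blood genes were positive (median 0.36, and −0.031 with the mitochondrial rRNA share as a covariate). The striatal cholinergic neurons, a separate cell type of the same region, had a median of 0.33 over 5 genes with none called, among them Lhx8 (0.62, adjusted p = 0.183).

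No other adenosine gene was called. Of 8 tested, 3 had positive and 5 negative fold changes, with a median of −0.022. Adora1, the adenosine A1 receptor that lowers cyclic AMP in most neurons, read 73.8 to 120 CPM in high libraries (median 104) and 112 to 148 in low ones (median 129), with −0.33 ± 0.08 (SE; adjusted p = 0.143). Its value was −0.14 with the mitochondrial rRNA share as a covariate (adjusted p = 0.775) and −0.049 with groups from the whole library total (adjusted p = 0.965). Nt5e, the ectonucleotidase that makes extracellular adenosine, had 0.29 ± 0.09 (SE; adjusted p = 0.200), and Ada, adenosine deaminase, −0.38 ± 0.19 (SE; adjusted p = 0.309). Adora3 was below the count filter. Among 8 opioid genes Penk was the one called, and Oprk1, the kappa receptor, had 0.31 ± 0.12 (SE; adjusted p = 0.238).

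Genes named by the study's own questions are described here for the same 20 libraries. All 18 immediate early genes, which neurons switch on within minutes of activity, had negative fold changes with a median of −0.53, and 14 had an unadjusted p under 0.05, but 0 passed the adjusted test. For Fos, Fosb, Junb, Arc, Egr3 and Fosl2 the highest values lay in deltamethrin replicate 5 and control replicate 10, both low libraries. Fos read 36.7 and 42.9 CPM there and at most 19.1 in any other of the 20 libraries. The part of these libraries in the list's median was not tested. Egr3 read 11.04 to 22.6 CPM in high and 15.3 to 38.4 in low libraries (−0.54 ± 0.15, SE; adjusted p = 0.155), and Fosl2 13.5 to 26.1 and 19.8 to 48.2 CPM (−0.63 ± 0.16, SE; adjusted p = 0.140). Both were called without deltamethrin replicate 2 (adjusted p = 0.0450 for Egr3 and 0.0433 for Fosl2). With groups from the whole library total the values were −0.11 for Egr3 (adjusted p = 0.951) and −0.28 for Fosl2 (adjusted p = 0.828), and the list's median was −0.25. Over all genes 1672 of 19277 were lower at an unadjusted p under 0.05.

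Clock genes had 15 of 18 negative fold changes with a median of −0.10, led by Bhlhe40 (−0.36, adjusted p = 0.138), Per1 (−0.34, adjusted p = 0.197) and Nr1d1 (−0.33, adjusted p = 0.201). Their summed level was 975 to 1174 CPM in high and 1032 to 1257 in low libraries. The 19 MAP kinase cascade genes had a median of −0.062 and none was called. The smallest adjusted p among them was 0.280, for Mapk14, a p38 kinase.

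**Figure D4:**
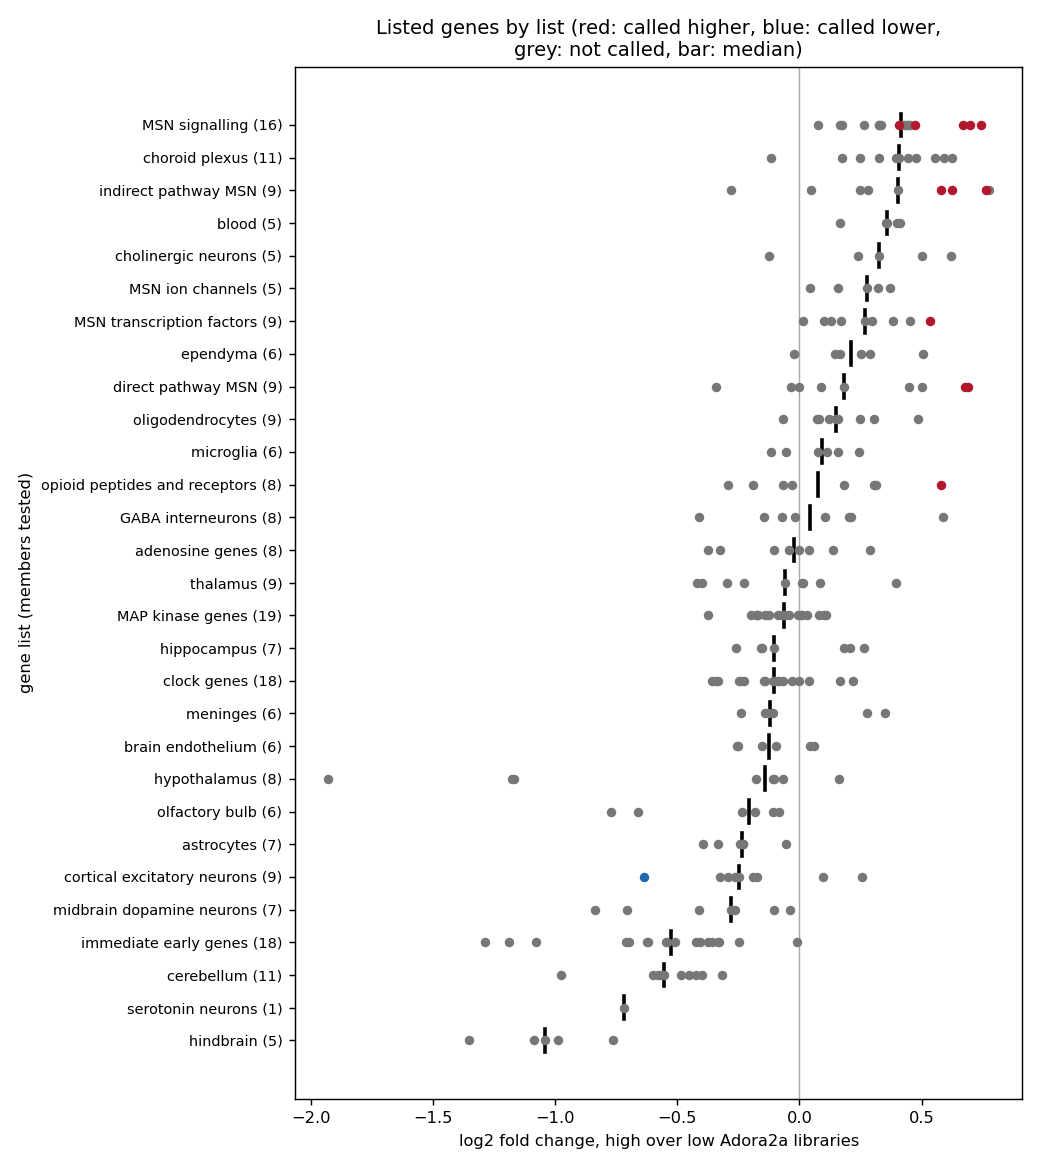
Each point is a listed gene at its log2 fold change, high over low (x axis), in rows by list with the number tested in parentheses (y axis). Red points were called higher, blue lower and grey not called, and black bars are list medians. The medium spiny neuron (MSN) lists lie to the right with 11 red points, and hindbrain, cerebellar and immediate early genes lie to the left with none called.

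Fitted within each agent, the called genes kept their direction, which follows in part from their choice on the same libraries and is a description. All 27 called genes had the same sign within the control libraries (4 high, 4 low) and within the deltamethrin libraries (6 high, 6 low). The same held for 61.9% of all genes fitted in both agents. Gpr6 had 0.88 within control and 0.70 within deltamethrin, Drd1 0.83 and 0.59, Drd2 0.74 and 0.56, and Penk 0.56 and 0.61. All 16 signalling genes were positive in both agents, against 32.7% of the 19027 genes fitted in both. Neither agent alone gave a call, with 0 of 19411 genes in control and 0 of 19393 in deltamethrin libraries by edgeR, where 1940 and 1261 had an unadjusted p under 0.05.

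A test of whether the high-to-low difference itself differed between agents found 0 of 19277 genes by edgeR, with a smallest adjusted p of 0.931 and 643 genes at an unadjusted p under 0.05. limma voom and DESeq2 also called 0, with 479 and 709 at an unadjusted p under 0.05. For Gpr6 the interaction was −0.19 ± 0.16 on the log2 scale (SE, unadjusted p = 0.244, adjusted 0.931). A p that misses the threshold does not show that the agents were alike, and 8 control libraries limit the precision.

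**Figure D5:**
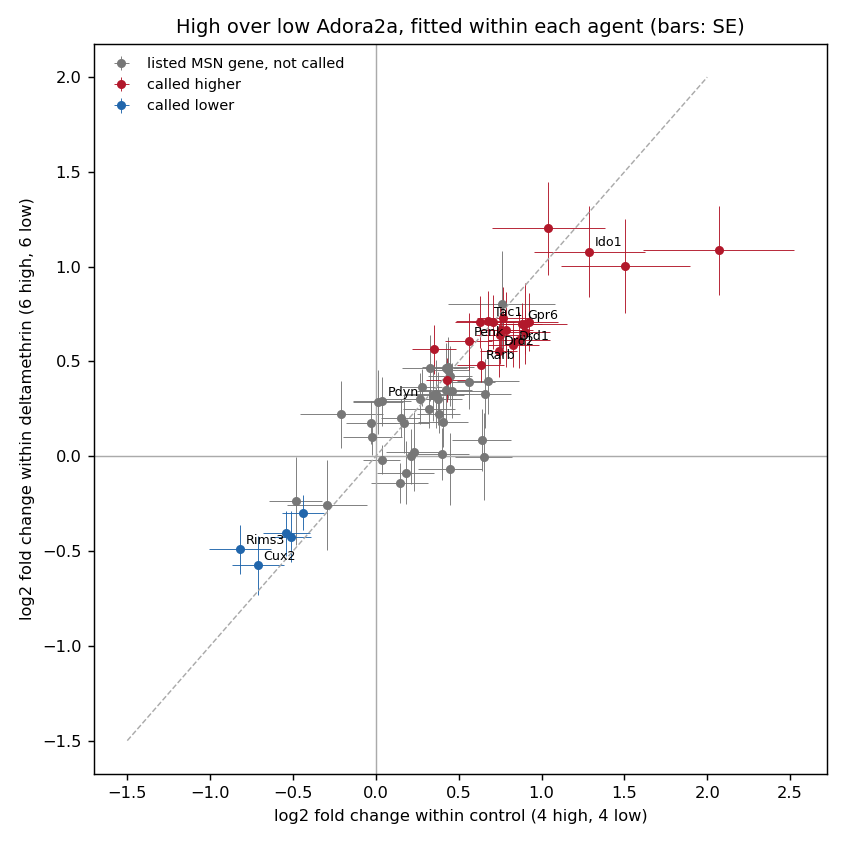
Log2 fold change of high over low libraries within control (x axis, 4 against 4) and within deltamethrin (y axis, 6 against 6), with bars for the SE. Red and blue points are the called genes and grey points the listed medium spiny neuron (MSN) genes not called, and the dashed line marks equal values. All called genes lie in the quadrants of equal sign, and Pdyn lies near 0 on the control axis.

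The 11 libraries in neither group were not used in the choice of extremes, and they carry the same measure between the limits. There, Spearman's rho with Adora2a, after agent means were subtracted, was positive for 19 of the 22 genes called higher (median 0.55), against 52.3% of 19255 genes (median 0.018). Penk had 0.83, Ppp1r1b 0.78, Drd1 0.71, Drd2 0.57 and Gpr6 0.43. The 3 without a positive value were Atp5k-ps2 (−0.12), Lrrc10b (−0.07) and Ido1 (−0.06). Of the 5 genes called lower, 3 had a negative value, with Cux2 at −0.49 and Rims3 at 0.15. These are descriptions over 11 libraries that share depth and composition differences, with no test. Control replicate 2, among the 11, had 17570311 counts, of which 40.2% were mitochondrial rRNA.

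By list, rho was positive for 15 of 16 signalling genes (median 0.44), 8 of 9 indirect-pathway genes (median 0.39), 7 of 9 direct-pathway genes (median 0.42) and 8 of 9 transcription factors (median 0.36). Among ion channel genes it was positive for 3 of 5, from −0.22 for Kcnip2 to 0.80 for Kcnab1. Positive values were not particular to these lists. All 5 cholinergic (median 0.63), 9 thalamic (0.62), 9 oligodendrocyte (0.57) and 5 hindbrain genes (0.48) had a positive rho. Positive values were found in 1 of 9 cortical excitatory genes (median −0.26), 1 of 11 choroid plexus genes (−0.25) and 0 of 5 blood genes (−0.22).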

How the data were processed

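Total RNA libraries of mouse brain (13 control, 18 deltamethrin) were analysed from the deposited table of raw counts for 48795 Ensembl genes, of which 10581 had no count in any library. The submitters' processing notes name Trimmomatic, HISAT2, SAMtools, MultiQC and the GRCm38 build, with no versions. The counting tool, annotation and use of strand are not given in the sources used here. Gene names and coordinates came from GENCODE M21 (GRCm38), which held 99.262% of the identifiers.

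High and low libraries were chosen by Adora2a CPM of the total without mt- genes. The members and the gene lists were chosen with earlier results of these data known. Counts of the 20 libraries were filtered with edgeR 4.0.16 filterByExpr (minimum count 10, minimum total 15), scaled by TMM and tested with the robust quasi-likelihood F-test (glmQLFit, glmQLFTest) with agent as covariate, in R 4.3.3. P-values were adjusted by the Benjamini-Hochberg method over all genes kept other than Adora2a, and a gene was called at an adjusted p under 0.05. Fold changes are high over low. The same steps were tested on simulated data. Library measures were compared by an exact permutation test within agent over all 64680 assignments.

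Genes were named by rule: the 10 of smallest p in each direction (no Gm, Rik or mt- symbols), Drd1, Drd2, Penk, Tac1, Pdyn, Ppp1r1b, Pde10a, Rgs9, Gpr6 and Adcy5, and up to 3 members of smallest p of each of 29 lists. Some genes that the rule names are not reported here, though they stay in the counts. Exceptions are marked in the text or were chosen after their values were seen, namely Slc17a7, Mbp, Grik3, Ebf1, Fos, Fosb, Junb, Arc and Cbln3. Alternatives covered scaling, filters, DESeq2 1.42.0, limma 3.58.1 voom, covariates, group sizes and omitted libraries. Depth was 25010678 to 38680621 counts per library in the 20 libraries compared. It was lower in some libraries of neither group, down to 17570311 in control replicate 2.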

Additional observations from a re-analysis of the deposited data

Results flagged for a closer look

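Within each group of 10 libraries, the highest and lowest value of every named gene and library measure was set against its nearest neighbour, and 25 values stood farther out than Dixon's 95% limit among 212 groups examined. For independent, normally distributed values this limit flags about 1 in 20 groups. The CPM used here were not log-transformed, both agents were pooled, and many flags share a library. The 25 values therefore cannot be set against that rate. The causes were not tested.

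Of these values 8 were in deltamethrin replicate 2, a high library: Wfs1, a hippocampal and amygdalar gene, at 83.4 CPM, Slc17a6 at 75.5, Hoxb5, a hindbrain and spinal homeobox gene, at 0.866, Slc6a5 at 20.9, Glra1 at 9.97, Aldh1l1, an astrocyte enzyme, at 46.1, and the vessel genes Pecam1 at 14.5 and Flt1 at 61.2 CPM.

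In control replicate 7, a high library, Ttr at 1252 CPM, Sostdc1, another choroid plexus gene, at 6.79 CPM and Lum, a meningeal matrix gene, at 2.86 CPM were the highest. Globin transcripts stood out in deltamethrin replicate 10 of the high group (Hba-a1 at 287 and Hba-a2 at 250 CPM) and in control replicate 10 of the low group (Hba-a1 at 215, Hba-a2 at 191 and Hbb-bs at 429 CPM). Control replicate 10 was also highest for Ada at 2.02 CPM.

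Single values were Lsm11 at 39.9 CPM in low deltamethrin replicate 3, Dlx6 at 6.07 and Tmem212, an ependymal gene, at 1.35 CPM in low deltamethrin replicate 5, Fibcd1, a hippocampal gene, at 35.5 CPM in low deltamethrin replicate 1, Hoxb5 at 2.29 CPM in low deltamethrin replicate 11, Nt5e at 10.1 CPM in high control replicate 3, Oxt at 1.47 CPM in high control replicate 13, and the number of genes with a count, lowest at 26358 in high control replicate 1.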

How the results depend on the processing

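Of 22 alternatives for the number of called genes, those that moved a count by over 1.5 times follow, as total (higher, lower). DESeq2 gave 162 (80, 82), an adjusted p under 0.1 gave 67 (43, 24), the number in the sample title as a covariate 44 (38, 6), the extremes of 3 and 4 libraries a side 2928 (1511, 1417) and continuous Adora2a over 31 libraries 86 (59, 27). Either agent alone gave 0 (0, 0). Groups from the whole total gave 20 (18, 2), of which 12 were among the 27. Without libraries over 20% mitochondrial rRNA, an alternative chosen after seeing the data, 15 were called (15, 0). The lower count moved to 9 with upper quartile factors, 8 where genes needed a mean count of 50, 0 with the mitochondrial rRNA covariate, 8 with no covariate, 8 with each agent split at its middle, 2 with groups from the whole total and 11 with protein-coding genes only, the latter also chosen after seeing the data. Listed medium spiny neuron genes called higher numbered 11, and 20 by DESeq2, 0 in either agent alone, 25 with the extremes and 21 with continuous Adora2a.

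Leaving out 1 library gave 18 to 667 called genes, 17 to 253 higher, 1 to 414 lower and 8 to 21 listed medium spiny neuron genes, with 0 to 0 interactions. All the highest values were without deltamethrin replicate 2. Among the other 19 the lower count ran from 1 to 12. Among others, Drd1, Drd2, Gpr6, Ppp1r1b, Rgs9, Serpina9 and Sh3rf2 were called in all 20 alternatives that used both agents and all 20 omissions. The mitochondrial rRNA difference was 5.44 to 7.52 percentage points over the omissions, and 7.51 within control (adjusted p = 0.114) and 5.80 within deltamethrin (adjusted p = 0.152), exact permutation tests.

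Over 2055 values of named genes 1883 kept direction and side of the threshold, 70 lost and 78 gained the call, and 24, all in genes not called, changed sign. With the mitochondrial rRNA covariate these log2 fold changes were 0.0088 for Map2k6, −0.091 for Npy, 0.051 for Aldh1a1, 0.13 for Th, 0.12 for Tshz1, 0.24 for Wfs1, −0.26 for Spink8, 0.070 for Tcf7l2, 0.074 for Glra1, 0.012 for Fgfr3, 0.034 for Aldh1l1, 0.0049 for Pecam1, 0.11 for Flt1, −0.093 for Dynlrb2 and −0.095 for Hbb-bs. With groups from the whole total they were 0.0011 for Aldh1a1, 0.060 for Tshz1, 0.059 for Wfs1, −0.33 for Spink8, −0.049 for Lum, −0.12 for Rsph1, −0.24 for Dynlrb2, −0.0085 for Hba-a2 and −0.21 for Hbb-bs. The cause was not tested. No paired analysis was possible because replicate numbers follow accession order and pair no samples. Depth limits Gpx6, Gm33651 and Atp5k-ps2, which had at most 41, 38 and 27 counts in a library.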

Other observations

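Some lists ranked with Adora2a among the 11 libraries in neither group although their genes did not differ that way between the high and low groups. All 9 thalamic genes had a positive Spearman's rho there (median 0.62), while their median log2 fold change between the groups was −0.060. For 7 midbrain dopamine genes, such as Slc6a3, the dopamine transporter, and Th, tyrosine hydroxylase, all rho values were positive (median 0.55) and all fold changes negative (median −0.28, but 0.051 with the mitochondrial rRNA share as a covariate). The oligodendrocyte list, in contrast, went the same way in both. Its rho was positive for all 9 genes (median 0.57) and its fold change for 8 of 9 (median 0.15). The choroid plexus list had the opposite pattern to the midbrain dopamine list, with 1 of 11 rho values positive (median −0.25) and 10 of 11 fold changes positive (median 0.41). These values are descriptions over 11 libraries, and the difference was not tested.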
